A study of Homo sapiens with 8 samples.

Results

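The assembly of N-glycans and their transfer to new proteins in the endoplasmic reticulum (ER) was followed here through 39 genes, chosen by symbol and sorted by step of the pathway. The steps were dolichol synthesis (5 genes), the lipid-linked glycan (18 genes), the oligosaccharyltransferase (10 genes), trimming of the transferred glycan (3 genes) and the supply of hexosamine (3 genes). Of the 39 genes, 37 were in the deposited count table, which held 36715 genes in the copy used here. The other members, DDOST and ALG11, were in the deposited normalized table only. Enough reads for a test were found for 34 of the 37, and for 36 of the 39 once DDOST and ALG11 were added.

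An N-glycan is built on dolichol phosphate, a long polyprenol lipid of the ER membrane. The first sugars are added on the cytosolic face, the lipid is flipped, and further mannoses and then glucoses are added in the lumen. The oligosaccharyltransferase moves the finished glycan onto asparagines of proteins entering the ER, after which glucosidases trim it so that lectin chaperones can bind the folding protein. Proteins that lack their N-glycans often misfold, and blocking the first step of assembly with tunicamycin is a standard way to cause ER stress.

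The cells were MDA-MB-231, an established line of triple-negative breast cancer grown in DMEM, and the same line was used in every group. They received the compound EMD37 at 0.5 µM for 24 h, with DMSO vehicle for 24 h as its control, or EMD37 at 0.5 µM for 12 h, with DMSO for 12 h as its control. Each of the 4 groups had 2 libraries, replicates A and B, and the title of the study names ER stress as its subject. The labels do not say whether the replicates were separate cultures, so every p-value reflects only how far these libraries spread, which may be technical.

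The count table held 8994977 to 11437813 reads per library, and a further 8.26% to 11.7% of the reads belonged to genes found in the normalized table only. Replicates correlated at 0.988 to 0.992 (Pearson, log2 CPM across genes, which are not independent replicates). The vehicle pair at 24 h was the most unlike, with a chi-square per degree of freedom of 9.76, against 3.21 to 3.90 for the other pairs. The 4 markers of MDA-MB-231 (VIM, CD44, AXL and CAV1) summed to 4325 to 4567 CPM with EMD37 at 24 h and 5708 to 6091 CPM with vehicle at 24 h, and 3 of the 4 were called lower at 24 h. Of 6 luminal, 5 leukocyte and 5 fibroblast markers, 3 luminal and 2 fibroblast markers had enough reads for a test, edgeR called 0 of them in either treatment comparison, and 1 luminal marker had an unadjusted p below 0.05, at 12 h. The 5 leukocyte markers summed to at most 1.48 CPM in any library, and LYZ was at 0 reads. All 6 ER stress sentinels (HSPA5, HERPUD1, DDIT3, XBP1, DNAJB9 and HYOU1) were called higher at both times, with a median log2 change of 2.25 at 24 h and 3.31 at 12 h. HSPA5 encodes the chaperone BiP.

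Of the 34 members tested in the count table, 9 were called higher and 6 lower with EMD37 at 24 h (quasi-likelihood test of edgeR, p-values adjusted after Benjamini and Hochberg over all tested genes, adjusted p below 0.05). Among all 14850 tested genes, 19.6% were called higher and 21.1% lower at 24 h, so the member shares of 26.5% and 17.6% were close to the background. In the oligosaccharyltransferase step 5 of 8 tested members rose and none fell, with a median log2 change of 0.36. In the lipid-linked glycan step 1 of 17 rose and 5 fell, with a median of -0.10, and no difference between steps was tested. The median over all 34 was 0.06, beside -0.03 over all tested genes. In RNA from bulk cultures, a smaller number of expressing cells and less RNA in each cell cannot be told apart.

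At 12 h with EMD37 fewer members were called, 5 higher and 1 lower of 34. The background at 12 h was 5.27% higher and 3.43% lower, and the member shares were 14.7% and 2.94%. The members called higher were NUS1, ALG2, MOGS, PGM3 and UAP1, and the member called lower was ALG10B. The median over the 34 members was 0.13, beside -0.01 over all tested genes. NUS1, ALG2 and PGM3 were called higher at both times and ALG10B lower at both times. No member was called in opposite directions at the 2 times, and 17 were called at neither.

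**Figure D1:**
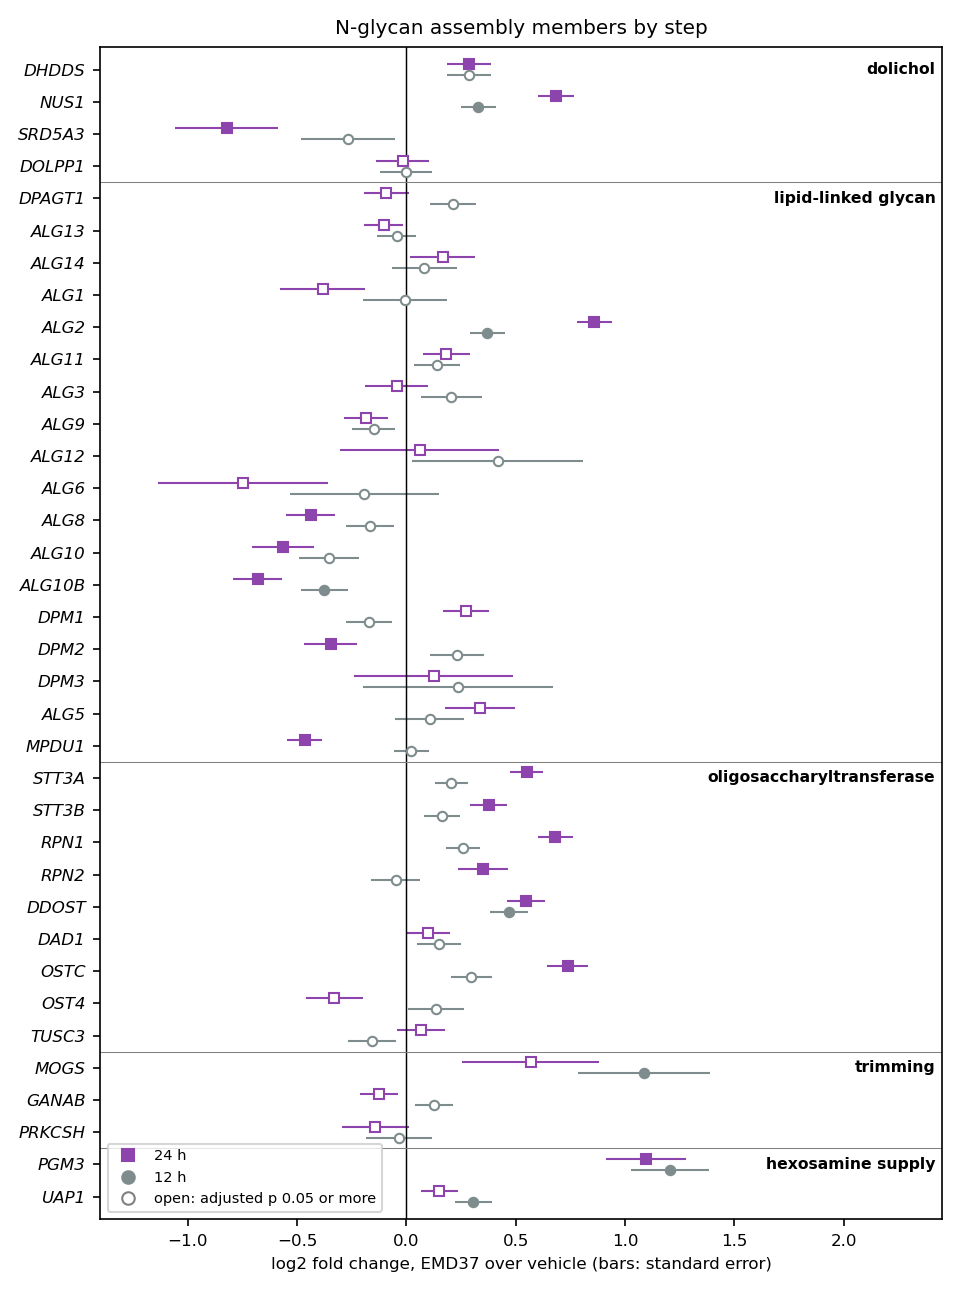
Log2 fold change of EMD37 over vehicle (horizontal axis) for the 36 tested members in order of pathway step (vertical axis), at 24 h (squares) and 12 h (circles), with bars for the standard error and filled symbols for an adjusted p below 0.05. At 24 h the filled squares of the oligosaccharyltransferase step lie right of 0, and those of ALG8, ALG10, ALG10B, DPM2 and MPDU1 left of 0. DDOST and ALG11 come from the fit with recovered reads.

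Dolichol synthesis begins with a cis-prenyltransferase made of the catalytic subunit DHDDS and its partner NUS1, the Nogo-B receptor. NUS1 (chr6:117675502-117710640, GENCODE 29 on hg38) had 122 and 133 CPM (reads scaled to library size with TMM factors, replicates A and B) with EMD37 at 24 h, against 77.8 and 81.0 CPM with vehicle. At 12 h NUS1 had 126 and 118 CPM with EMD37 and 94.1 and 99.3 CPM with vehicle. The EMD37 libraries were above the vehicle libraries at both times without overlap. The log2 change of NUS1 was 0.68 (SE 0.08, edgeR adjusted p = 5.8e-06) at 24 h and 0.33 (SE 0.08, adjusted p = 0.017) at 12 h. The 12 h call of NUS1 ended without vehicle replicate A (log2 0.30, adjusted p = 0.177), vehicle replicate B (0.36, adjusted p = 0.0837), EMD37 replicate A (0.28, adjusted p = 0.191) or EMD37 replicate B (0.38, adjusted p = 0.0732), all of 12 h.

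DHDDS (chr1:26432282-26471294) had 56.5 and 50.5 CPM with EMD37 at 24 h, against 43.7 and 43.9 CPM with vehicle. At 12 h DHDDS had 51.8 and 47.9 CPM with EMD37 and 40.5 and 41.1 CPM with vehicle. The libraries did not overlap at either time, and the log2 change was 0.29 at both. The 24 h change passed the test (SE 0.10, adjusted p = 0.032) and the 12 h change did not (SE 0.10, adjusted p = 0.097), although it did without vehicle replicate A (adjusted p = 0.0409) or B (adjusted p = 0.0398) of 24 h. Without EMD37 replicate A of 24 h the 24 h change of DHDDS was 0.22 (adjusted p = 0.213), without vehicle replicate B of 24 h it was 0.29 (adjusted p = 0.0544), and without EMD37 replicate A of 12 h it was 0.28 (adjusted p = 0.0518). The promoter window of DHDDS is shown because it holds the only unfolded protein response element (UPRE, TGACGTGG) found in a window of a member. It is the RefSeq window of GRCh38.p14, plus strand, from 250 bases before the annotated start to 50 after, written 5′ to 3′ with the element in capitals:
DHDDS promoter, chr1:26432071-26432370: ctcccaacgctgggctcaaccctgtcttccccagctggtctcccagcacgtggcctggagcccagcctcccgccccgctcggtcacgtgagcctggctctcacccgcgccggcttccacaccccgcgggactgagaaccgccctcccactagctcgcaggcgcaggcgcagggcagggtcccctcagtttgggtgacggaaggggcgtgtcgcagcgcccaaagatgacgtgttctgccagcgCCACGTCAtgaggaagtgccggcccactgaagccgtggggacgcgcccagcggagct

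The element reads on the strand opposite to DHDDS, with its first printed base 7 bases before the RefSeq start used for the window. That start is not the GENCODE start given above. UPRE is known as a binding sequence of the ER stress factors XBP1 and ATF6.

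The other dolichol genes, SRD5A3, DOLPP1 and DOLK, were not among the higher members. SRD5A3, the reductase that makes dolichol from polyprenol, had 6.12 and 3.96 CPM with EMD37 at 24 h, against 8.61 and 9.16 CPM with vehicle. At 12 h SRD5A3 had 7.46 and 9.26 CPM with EMD37, against 11.3 and 8.89 CPM with vehicle. The groups were apart at 24 h, with EMD37 lower, and overlapped at 12 h. SRD5A3 fell by 0.82 on the log2 scale at 24 h (SE 0.24, adjusted p = 0.0105), but by 0.54 without EMD37 replicate B of 24 h, where the adjusted p was 0.1495. DOLPP1, a phosphatase that recycles the dolichol carrier, had a log2 change of -0.02 at 24 h (SE 0.12) and was not called at either time. DOLK, the kinase that makes dolichol phosphate, had 0 reads in all 8 libraries, which allows up to 3 reads or 0.262 to 0.334 CPM per library for counting error alone. The program and settings of the count are not given in the sources used here, so for DOLK, MAGT1 and GFPT1 few RNA molecules in the cells and reads lost in the count cannot be told apart. Summed over the 5 genes, the step had 219.5 and 221 CPM with EMD37 at 24 h and 163 and 171 CPM with vehicle, and NUS1 supplied the largest part of it in every library.

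On the cytosolic face of the ER, 6 genes build the lipid-linked glycan, and only ALG2 among them was called. ALG2, a mannosyltransferase that extends the mannose core (chr9:99216426-99221956), had 227 and 233 CPM with EMD37 at 24 h, against 135 and 118 CPM with vehicle. At 12 h ALG2 had 202 and 219 CPM with EMD37 and 164 and 162 CPM with vehicle. EMD37 was above vehicle in every library at each time. The log2 change was 0.86 (SE 0.08, adjusted p = 3.4e-07) at 24 h, a 1.82-fold rise, and 0.37 (SE 0.08, adjusted p = 0.0066) at 12 h. The 12 h call of ALG2 ended without vehicle replicate A (log2 0.39, adjusted p = 0.0705), vehicle replicate B (0.35, adjusted p = 0.0990) or EMD37 replicate B (0.31, adjusted p = 0.167) of 12 h. The other genes of this face are DPAGT1, which starts the glycan and is the target of tunicamycin, the ALG13 and ALG14 pair that adds the next N-acetylglucosamine, and the mannosyltransferases ALG1 and ALG11. Their log2 changes ran from -0.38 (ALG1, adjusted p = 0.132) to 0.18 (ALG11, fit with recovered reads, adjusted p = 0.200) at 24 h. At 12 h they ran from -0.04 (ALG13) to 0.21 (DPAGT1), and none was called. Reads of ALG1, ALG11 and DPAGT1 are uncertain, since 42.3%, 39.7% and 21.3% of their exon bases are also exons of other genes and the library kit does not mark strand.

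Within the ER lumen ALG3, ALG9 and ALG12 add the last mannoses. Their log2 changes lay between -0.18 and 0.06 at 24 h and between -0.15 and 0.42 at 12 h, and none was called. Exons of another gene cover 24.4% of the exon bases of ALG9. ALG12 had few reads, 2.12 to 4.44 CPM with EMD37 and 1.83 to 4.09 CPM with vehicle. Its promoter is shown because it holds the only ER stress response element (ERSE, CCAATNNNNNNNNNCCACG) in a window of a member. ERSE is known as the sequence bound by ATF6 together with NF-Y, and the fixed bases of the element are in capitals (RefSeq, GRCh38.p14, minus strand):
ALG12 promoter, chr22:49918389-49918688: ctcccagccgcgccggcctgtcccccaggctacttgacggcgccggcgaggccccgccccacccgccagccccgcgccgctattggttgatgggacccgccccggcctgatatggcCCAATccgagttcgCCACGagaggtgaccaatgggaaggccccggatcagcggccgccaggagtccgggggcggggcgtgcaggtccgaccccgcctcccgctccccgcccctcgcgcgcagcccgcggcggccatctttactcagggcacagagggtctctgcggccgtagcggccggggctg

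The element begins 134 bases before the RefSeq start of ALG12. CRELD2 lies on the opposite strand there, and 42.1% of the exon bases of ALG12 are also exons of CRELD2 or AL671710.1, so the reads of ALG12 are uncertain. The log2 change of ALG12 was 0.06 at 24 h (SE 0.36, adjusted p = 0.910).

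The 3 glucoses that finish the glycan are added by ALG6, ALG8 and ALG10 or its copy ALG10B. All 4 genes had log2 changes below 0 with EMD37 at 24 h, and 3 of the 4 were called lower. Among all tested genes 21.1% were called lower at 24 h, and the difference was not tested. The calls of ALG10 and ALG10B may not be independent, since reads of these genes can be exchanged. Those of ALG8 and ALG10 each ended without EMD37 replicate A of 24 h, while that of ALG10B held under every alternative. The median log2 change of the 4 genes was -0.62 at 24 h and -0.27 at 12 h. ALG8 had 29.5 and 30.8 CPM with EMD37 at 24 h, against 43.3 and 38.2 CPM with vehicle, and 34.7 and 36.3 CPM with EMD37 at 12 h, against 40.9 and 38.9 CPM with vehicle. EMD37 libraries were below vehicle libraries at both times. ALG8 fell by 0.44 at 24 h (SE 0.11, adjusted p = 0.0051), but without vehicle replicate A of 24 h the change was -0.31 (adjusted p = 0.0630) and without EMD37 replicate A of 24 h it was -0.39 (adjusted p = 0.0605). Its 12 h change of -0.17 was not called (adjusted p = 0.406). ALG6, at 1.26 to 3.66 CPM over all libraries, had a log2 change of -0.75 at 24 h (SE 0.39, adjusted p = 0.139), with overlapping groups, and was called without vehicle replicate A of 24 h (-1.10, adjusted p = 0.0279).

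ALG10 and ALG10B encode near-identical glucosyltransferases that add the last glucose, the mark that the oligosaccharyltransferase reads. Their coding sequences, 1422 bases each, were identical at 1389 positions (97.7%), and 586 of 1373 windows of 50 bases in ALG10 were also in ALG10B. Reads of the 2 genes can therefore be exchanged or lost, depending on how the authors counted reads with several matches. The first 120 coding bases from GENCODE 29 show how few bases separate them, with the 5 differing positions in capitals:
ALG10: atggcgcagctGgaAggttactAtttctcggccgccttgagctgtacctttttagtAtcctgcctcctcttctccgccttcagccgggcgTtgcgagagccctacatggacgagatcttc
ALG10B: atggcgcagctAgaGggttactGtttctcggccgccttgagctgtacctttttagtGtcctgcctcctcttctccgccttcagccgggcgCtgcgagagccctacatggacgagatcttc

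ALG10B (chr12:38316578-38329728) had 28.5 and 30.2 CPM with EMD37 at 24 h, against 48.8 and 45.3 CPM with vehicle. At 12 h ALG10B had 44.3 and 38.4 CPM with EMD37, against 55.6 and 51.9 CPM with vehicle. The groups did not overlap at either time. ALG10B fell by 0.68 at 24 h (SE 0.11, adjusted p = 0.00014) and by 0.38 at 12 h (SE 0.11, adjusted p = 0.039). The 12 h call ended when any of the 12 h libraries was left out: -0.32 (adjusted p = 0.306) without vehicle replicate A, -0.43 (adjusted p = 0.105) without vehicle replicate B, -0.48 (adjusted p = 0.0728) without EMD37 replicate A and -0.27 (adjusted p = 0.389) without EMD37 replicate B. It also ended without EMD37 replicate A (adjusted p = 0.0596) or B (adjusted p = 0.0545) of 24 h. ALG10 (chr12:34022281-34029694) had 15.1 and 19.3 CPM with EMD37 at 24 h, against 24.5 and 26.5 CPM with vehicle. At 12 h it had 21.8 and 22.4 CPM with EMD37 and 29.4 and 27.2 CPM with vehicle. ALG10 was lower with EMD37 in every library of each time. It fell by 0.56 at 24 h (SE 0.14, adjusted p = 0.0048), but by 0.38 without EMD37 replicate A of 24 h, where the adjusted p was 0.0994. The 12 h change of -0.35 was not called (adjusted p = 0.133), but was without vehicle replicate A (adjusted p = 0.0413) or B (adjusted p = 0.0406) of 24 h. The antisense gene AC046130.1 shares 42.2% of the exon bases of ALG10, which is a further source of uncertain reads.

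The luminal sugars come from dolichol phosphate mannose, made by DPM1 with its membrane subunits DPM2 and DPM3, and from dolichol phosphate glucose, made by ALG5. MPDU1 is needed for the use of both. MPDU1 (chr17:7583529-7592789) had 171 and 162 CPM with EMD37 at 24 h, against 228 and 233 CPM with vehicle. At 12 h MPDU1 had 191 and 216 CPM with EMD37, against 208 and 192 CPM with vehicle. The 24 h groups were apart and the 12 h groups overlapped. MPDU1 fell by 0.46 at 24 h (SE 0.08, adjusted p = 0.00022), and its 12 h change was 0.02 (SE 0.08, adjusted p = 0.906). DPM2 had 40.7 and 43.3 CPM with EMD37 at 24 h, against 47.1 and 60.0 CPM with vehicle, and 43.0 and 47.7 CPM with EMD37 at 12 h, against 36.3 and 40.7 CPM with vehicle. EMD37 libraries were below vehicle at 24 h and above it at 12 h. DPM2 fell by 0.35 at 24 h (SE 0.12, adjusted p = 0.032), a call that ended without some single libraries. The change shrank most without vehicle replicate B of 24 h and grew without EMD37 replicate B of 24 h. The 24 h change of DPM2 was -0.17 (adjusted p = 0.316) without vehicle replicate B, -0.28 (adjusted p = 0.183) without EMD37 replicate A and -0.40 (adjusted p = 0.0774) without EMD37 replicate B, all of 24 h, and -0.33 (adjusted p = 0.0520) without EMD37 replicate B of 12 h. DPM1 at 0.27 (adjusted p = 0.0505), ALG5 at 0.34 (adjusted p = 0.104) and DPM3 at 0.12 (adjusted p = 0.816) were not called at 24 h, although DPM1 passed with DESeq2-type size factors (0.29, adjusted p = 0.0391) and without vehicle replicate A (0.32, adjusted p = 0.0374) or EMD37 replicate A (0.39, adjusted p = 0.0347) of 24 h. DPM3 was at 1.00 and called higher at 24 h without vehicle replicate B of 24 h (adjusted p = 0.0366). Exons of other genes cover 19.2% of the exon bases of DPM2 and 11.1% of those of MPDU1.

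**Figure D2:**
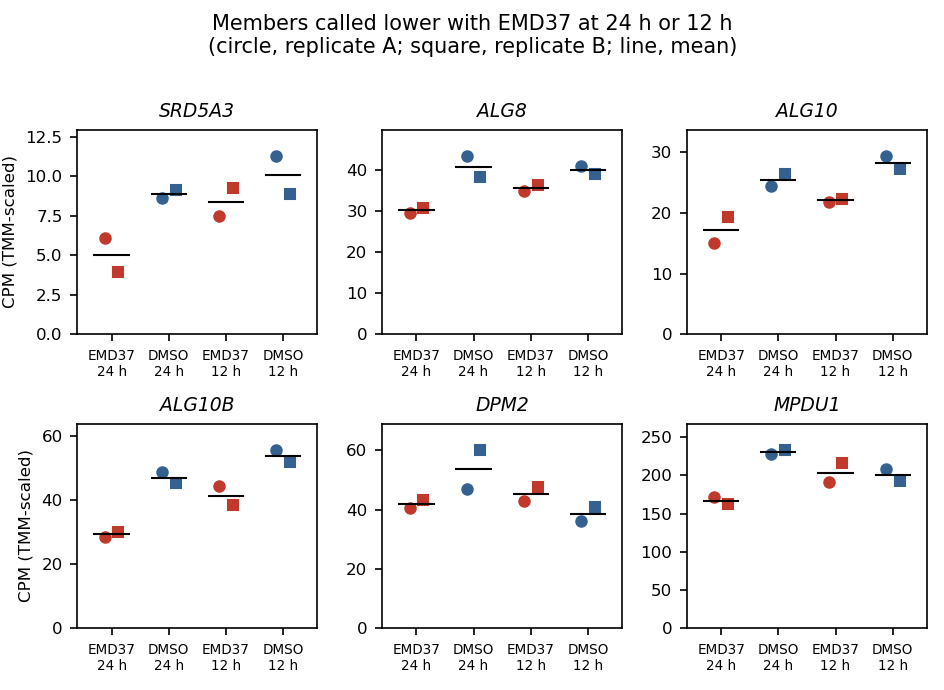
CPM (TMM-scaled reads, vertical axis from 0) of the 6 members called lower with EMD37 at 24 h or 12 h, for EMD37 (red) and DMSO (blue) at 24 h and at 12 h, with circles for replicate A, squares for replicate B and a line for the mean of 2. At 24 h both EMD37 libraries lie below both DMSO libraries in all 6 panels.

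Of the 8 oligosaccharyltransferase members tested in the count table, 5 were called higher at 24 h (62.5%), beside 19.6% of all tested genes. The share was the largest of the 5 steps. Dolichol had 2 of 4 (50%) and hexosamine supply 1 of 2 (50%), and no difference between steps was tested. DDOST was called higher in addition in the fit with recovered reads. At 12 h edgeR and DESeq2 each called 0 of the 8, 3 had an unadjusted p below 0.05, and the median log2 change was 0.16. With only the 4 libraries of 12 h in the fit, OSTC (adjusted p = 0.0015), RPN1 (adjusted p = 0.0045) and STT3A (adjusted p = 0.0278) passed, and OSTC and RPN1 also did without either vehicle library of 24 h (adjusted p = 0.0057 to 0.0173). The complex has 1 of 2 catalytic subunits, STT3A, which glycosylates proteins during translocation, or STT3B, which acts on sites that were skipped. STT3A had 284 and 292 CPM with EMD37 at 24 h, against 205 and 188 CPM with vehicle, and 218 and 238 CPM with EMD37 at 12 h, against 199 and 196 CPM with vehicle. EMD37 was above vehicle in every library at each time. STT3A rose by 0.55 at 24 h (SE 0.08, adjusted p = 2.5e-05), and its 12 h change was 0.21 (SE 0.08, adjusted p = 0.116). STT3B had 452 and 521 CPM with EMD37 at 24 h, against 393 and 356 CPM with vehicle, and 445 and 449 CPM with EMD37 at 12 h, against 413 and 385 CPM with vehicle. Its groups were also apart at both times. STT3B rose by 0.38 at 24 h (SE 0.08, adjusted p = 0.0019), and its 12 h change was 0.16 (SE 0.08, adjusted p = 0.269).

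The shared core of the complex holds RPN1 and RPN2, the ribophorins, with DDOST, DAD1 and OST4. RPN1 (chr3:128619970-128681075) had 233 and 254 CPM with EMD37 at 24 h, against 146 and 158 CPM with vehicle. At 12 h RPN1 had 177 and 176 CPM with EMD37, against 141 and 153 CPM with vehicle. Every EMD37 library of RPN1 was above the vehicle libraries of its time. RPN1 rose by 0.68 at 24 h (SE 0.08, adjusted p = 3.6e-06), a 1.60-fold change, and the 12 h change of 0.26 missed the threshold (SE 0.08, adjusted p = 0.0536). DDOST (chr1:20651767-20661544), read from the recovered reads, had 176 and 183 CPM with EMD37 at 24 h, against 114 and 132 CPM with vehicle. At 12 h DDOST had 134 and 139.9 CPM with EMD37, against 95.4 and 102 CPM with vehicle. It was the only subunit called at both times. DDOST rose by 0.55 at 24 h (SE 0.09, adjusted p = 5.1e-05) and by 0.47 at 12 h (SE 0.09, adjusted p = 0.0016) in the fit with recovered reads. The 12 h call of DDOST ended without vehicle replicate A (log2 0.42, adjusted p = 0.0511) or EMD37 replicate B (0.42, adjusted p = 0.0686) of 12 h, and PINK1-AS covers 15.7% of its exon bases.

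RPN2 moved less evenly. It had 124.0 and 159 CPM with EMD37 at 24 h, against 124.2 and 97.8 CPM with vehicle, and 125 and 126 CPM with EMD37 at 12 h, against 129 and 130.4 CPM with vehicle. The 24 h groups overlapped, since EMD37 replicate A was no higher than vehicle replicate A. RPN2 rose by 0.35 at 24 h (SE 0.11, adjusted p = 0.0215), and its 12 h change was -0.05. Without vehicle replicate B of 24 h the change was 0.19 (adjusted p = 0.137) and without EMD37 replicate B it was 0.15 (adjusted p = 0.381), while without vehicle replicate A it was 0.57 (adjusted p = 3.5e-06) and without EMD37 replicate A 0.54 (adjusted p = 0.0032). DAD1, a small core subunit, had a log2 change of 0.10 at 24 h (adjusted p = 0.458) and OST4, the smallest, of -0.33 (adjusted p = 0.0529), or -0.37 without vehicle replicate B of 24 h (adjusted p = 0.0380). Exons of other genes cover 21.0% of those of OST4. It was the only tested subunit with both EMD37 libraries below both vehicle libraries at 24 h.

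OSTC joins the STT3A form of the complex, and TUSC3 or MAGT1, thiol oxidoreductases, join the STT3B form. OSTC (chr4:108650584-108667820) had 152 and 169.6 CPM with EMD37 at 24 h, against 107 and 86.2 CPM with vehicle. At 12 h it had 132 CPM in both EMD37 libraries, against 109 and 106 CPM with vehicle. The groups were apart at both times. OSTC rose by 0.74 at 24 h (SE 0.09, adjusted p = 1e-05), a 1.67-fold change and the largest of the step, and its 12 h change was 0.30 (SE 0.09, adjusted p = 0.0615). TUSC3 was not called, with 0.07 at 24 h (SE 0.11, adjusted p = 0.669) and -0.16 at 12 h, at 37.8 to 43.1 CPM with EMD37 and 37.8 to 49.1 CPM with vehicle. MAGT1, one of the members whose few reads may come from the cells or the count, was below the read filter, with 6 and 7 reads with EMD37 at 24 h, 4 and 0 with vehicle at 24 h, 15 and 8 with EMD37 at 12 h and 7 and 4 with vehicle at 12 h. Over the 9 subunits of the count table the summed level was 1431 and 1600 CPM with EMD37 at 24 h and 1173 and 1068 CPM with vehicle, and 1269 and 1316 CPM with EMD37 at 12 h and 1174 and 1138 CPM with vehicle.

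**Figure D3:**
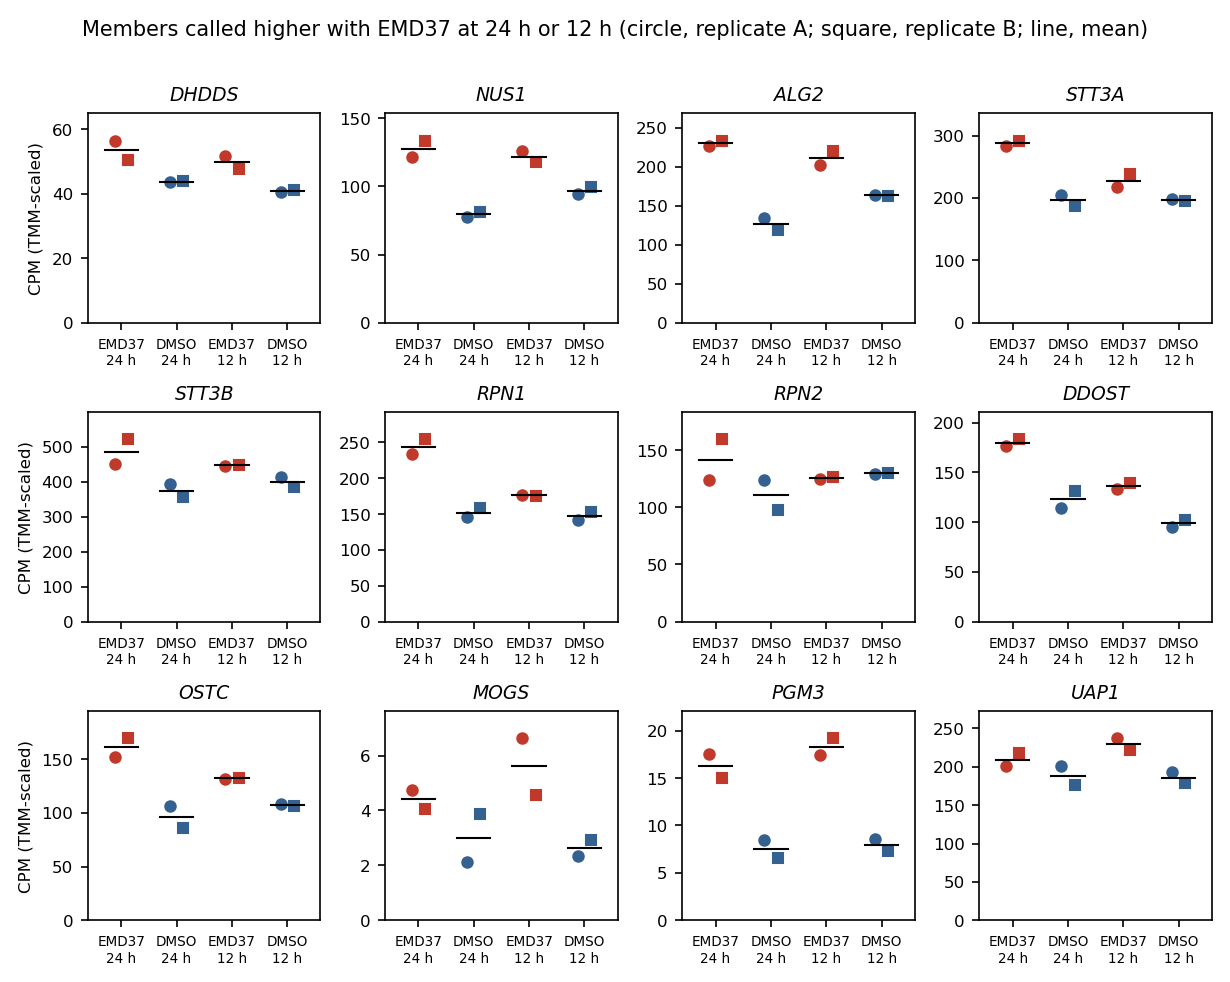
CPM (TMM-scaled reads, vertical axis from 0) of the 12 members called higher with EMD37 at 24 h or 12 h, laid out as in the plot of lower members, with DDOST from recovered reads. In fold, STT3A, RPN1 and OSTC lie furthest above DMSO at 24 h among the oligosaccharyltransferase subunits of the count table, and the RPN2 libraries of 24 h overlap.

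Trimming of the transferred glycan starts with MOGS, glucosidase I, and goes on with glucosidase II, made of GANAB and PRKCSH. MOGS had low counts, 4.75 and 4.05 CPM with EMD37 at 24 h, against 2.13 and 3.88 CPM with vehicle, and 6.63 and 4.58 CPM with EMD37 at 12 h, against 2.34 and 2.91 CPM with vehicle. The groups were apart at both times. MOGS rose by 1.09 at 12 h (SE 0.30, adjusted p = 0.034), and its 24 h change was 0.57 (SE 0.31, adjusted p = 0.164). The 12 h call of MOGS ended without vehicle replicate A (log2 0.96, adjusted p = 0.210), vehicle replicate B (1.26, adjusted p = 0.0959) or EMD37 replicate A (0.79, adjusted p = 0.331) of 12 h, and without EMD37 replicate B of 24 h (1.09, adjusted p = 0.0523). GANAB, the catalytic subunit, had log2 changes of -0.13 at 24 h (SE 0.09) and 0.13 at 12 h (SE 0.09). PRKCSH, the subunit that retains it in the ER, had -0.14 at 24 h (SE 0.15) and -0.03 at 12 h (SE 0.15). In the fit to all libraries neither passed the threshold at either time, and edgeR and DESeq2 each called 0 of the 3 genes at 24 h, with 0 at an unadjusted p below 0.05. PRKCSH was called lower at 24 h without vehicle replicate A of 24 h (-0.38, adjusted p = 0.0094), and MOGS higher at 24 h without vehicle replicate B of 24 h (1.04, adjusted p = 0.017).

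The hexosamine pathway makes UDP-N-acetylglucosamine, the first sugar donor of the glycan. PGM3, a mutase of the pathway (chr6:83161150-83193936), had 17.5 and 15.0 CPM with EMD37 at 24 h, against 8.51 and 6.57 CPM with vehicle. At 12 h it had 17.4 and 19.2 CPM with EMD37, against 8.54 and 7.35 CPM with vehicle. Both EMD37 pairs were far above both vehicle pairs. PGM3 rose by 1.10 at 24 h (SE 0.18, adjusted p = 0.00016, 2.14-fold) and by 1.21 at 12 h (SE 0.18, adjusted p = 0.00024, 2.31-fold), the largest log2 change among tested members at both times. Of the members called at 12 h, PGM3 was the only one whose 12 h call held under every alternative tried, with adjusted p of at most 0.0088. Exons of DOP1A on the other strand cover 14.8% of its exon bases.

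UAP1, which makes UDP-N-acetylglucosamine in the last step, had 200.5 and 218 CPM with EMD37 at 24 h, against 200.8 and 177 CPM with vehicle. At 12 h UAP1 had 237 and 221 CPM with EMD37, against 193 and 178 CPM with vehicle. The 24 h groups overlapped and the 12 h groups did not. UAP1 rose by 0.31 at 12 h (SE 0.08, adjusted p = 0.032), and its 24 h change was 0.15 (SE 0.08, adjusted p = 0.171), which became 0.28 (adjusted p = 0.0213) without vehicle replicate A of 24 h. The 12 h call of UAP1 ended without vehicle replicate A (log2 0.37, adjusted p = 0.0973), vehicle replicate B (0.24, adjusted p = 0.281), EMD37 replicate A (0.25, adjusted p = 0.267) or EMD37 replicate B (0.36, adjusted p = 0.131), all of 12 h. GFPT1, the rate-limiting enzyme of the pathway in most tissues, was below the read filter, with 4 reads in each EMD37 library of 24 h, 1 and 4 with vehicle at 24 h, 7 and 3 with EMD37 at 12 h and 0 and 2 with vehicle at 12 h. For GFPT1 too, low RNA and reads lost in the count cannot be told apart.

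Whether the response at 24 h differed from that at 12 h was tested with the interaction of treatment and time. The interaction was called higher for 5 members (NUS1, ALG2, STT3A, RPN1 and OSTC) and lower for 2 (DPM2 and MPDU1), beside 7.96% and 7.94% of all tested genes. The member shares were 14.7% and 5.88%. The interaction of ALG2 was 0.49 (SE 0.11, adjusted p = 0.0074) and that of MPDU1 -0.49 (SE 0.11, adjusted p = 0.0078). In the trimming and hexosamine steps edgeR and DESeq2 each called 0 interactions, with 0 at an unadjusted p below 0.05, and that of PGM3 was -0.11 (SE 0.26, adjusted p = 0.819). With 1 library of 24 h left out, interactions were called for GANAB (-0.34, adjusted p = 0.0463, without vehicle replicate B), for RPN2 without vehicle replicate A (0.62, adjusted p = 0.00021) or EMD37 replicate A (0.58, adjusted p = 0.0261), and for DPM1 without vehicle replicate A, vehicle replicate B or EMD37 replicate A (0.42 to 0.56, adjusted p = 0.0213 to 0.0492). Each of the 7 interaction calls ended without at least 1 library. The interaction of ALG2 ended without EMD37 replicate A of 12 h (0.43, adjusted p = 0.0601), and that of MPDU1 without vehicle replicate B of 12 h (-0.41, adjusted p = 0.0698) or EMD37 replicate B of 12 h (-0.39, adjusted p = 0.0957).

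Vehicle libraries at 24 h were also set against vehicle libraries at 12 h, without EMD37. Time in culture, time in DMSO and any batch of the libraries cannot be told apart in this comparison. Of the 34 members, 1 was called higher (DPM2) and 1 lower (ALG2), beside 2.75% and 3.25% of all tested genes. ALG2 fell by 0.36 at 24 h relative to 12 h in vehicle cells (SE 0.08, adjusted p = 0.018), and NUS1 had a change of -0.29 (SE 0.08, adjusted p = 0.0533). DPM2 rose by 0.47 in vehicle cells (SE 0.12, adjusted p = 0.035). DDOST rose by 0.32 (SE 0.09, adjusted p = 0.044) in the fit with recovered reads. The 24 h and 12 h EMD37 values of ALG2 lay closer together, 227 and 233 CPM at 24 h and 202 and 219 CPM at 12 h, than its vehicle values, 135 and 118 CPM at 24 h and 164 and 162 CPM at 12 h. Vehicle libraries enter both this comparison and the treatment comparisons, so their values are not independent. Without vehicle replicate B of 24 h, the vehicle change was -0.26 for ALG2 (adjusted p = 0.134), 0.31 for DPM2 (adjusted p = 0.157) and 0.19 for DDOST (adjusted p = 0.379), and without vehicle replicate A of 12 h it was -0.34 for ALG2 (adjusted p = 0.192), 0.40 for DPM2 (adjusted p = 0.258) and 0.27 for DDOST (adjusted p = 0.336). Without vehicle replicate B of 12 h it was -0.38 for ALG2 (adjusted p = 0.0919), 0.55 for DPM2 (adjusted p = 0.0820) and 0.37 for DDOST (adjusted p = 0.131). Calls appeared without vehicle replicate A of 24 h for DPM3 (1.502, adjusted p = 0.00079), OSTC (-0.33, adjusted p = 0.0199) and RPN2 (-0.42, adjusted p = 0.0020), and without vehicle replicate B of 24 h for DAD1 (0.33, adjusted p = 0.0401). The call of ALG2 also ended without EMD37 replicate B of 12 h (-0.36, adjusted p = 0.0526), that of DPM2 without 3 of the EMD37 libraries (0.47, adjusted p = 0.0568 to 0.0685, all but replicate A of 24 h) and that of DDOST without any 1 of the 4 (0.31 to 0.32, adjusted p = 0.0606 to 0.0964).

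**Figure D4:**
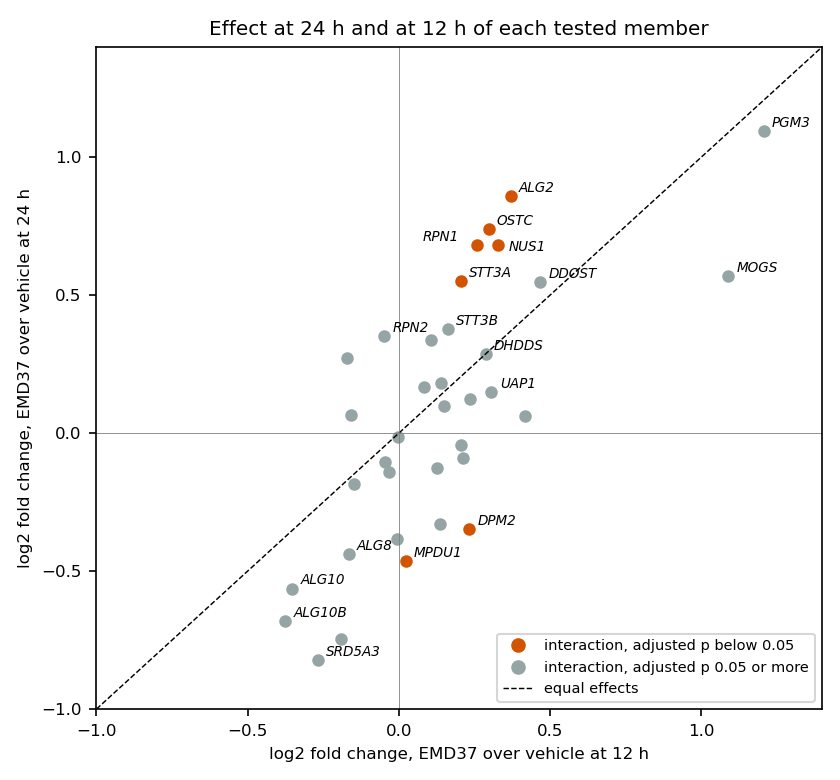
Log2 fold change of EMD37 over vehicle at 24 h (vertical axis) against that at 12 h (horizontal axis) for each of the 36 tested members, with orange for an interaction adjusted p below 0.05 and a dashed line where both effects are equal. NUS1, ALG2, STT3A, RPN1 and OSTC lie above the line, DPM2 and MPDU1 below it, and PGM3 near it at 1.10 and 1.21.

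Levels were compared between members per kilobase of exon, as the mean over the 4 groups. DAD1 was the highest at 146 CPM per kilobase, followed by STT3B at 85.1, GANAB at 79.0, OSTC at 76.8, and ALG2 and MPDU1 at 61.2 each. All the oligosaccharyltransferase subunits except TUSC3 (8.04) and MAGT1 (0.126) were above 30 CPM per kilobase on this scale. STT3B stood above STT3A in every group, with 97.0 and 38.9 CPM per kilobase with EMD37 at 24 h and 74.7 and 26.6 with vehicle. Lower levels were found for ALG10 (5.30), ALG10B (3.75), ALG12 (0.523) and ALG6 (0.476 CPM per kilobase). PGM3 was at 1.71 and UAP1 at 59.1 CPM per kilobase, so the member with the largest fold change was among the lowest in level. An exon length over all transcripts of a gene overstates the length of the transcript in use, so these levels rank genes only roughly.

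**Figure D5:**
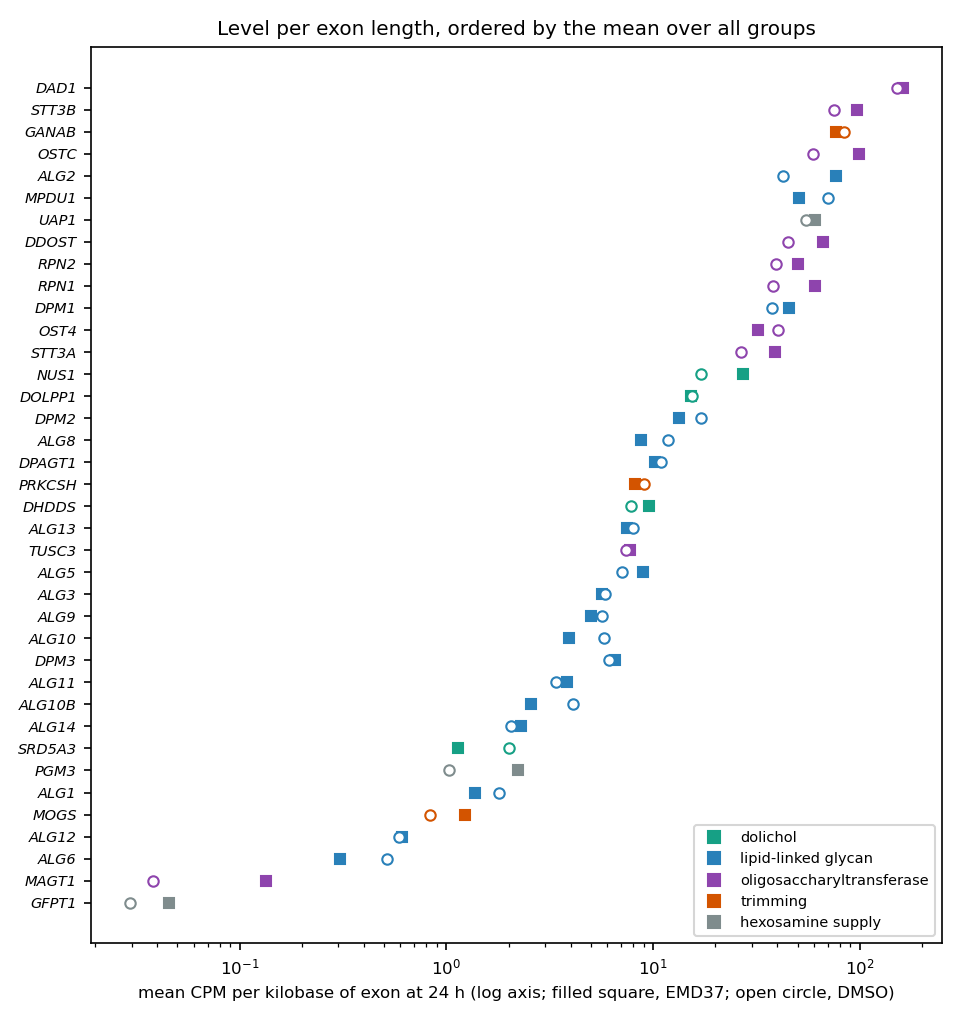
Mean CPM per kilobase of exon at 24 h (log axis) for the 38 members with reads, with filled squares for EMD37, open circles for DMSO and colours for the pathway step, ordered by the mean over the 4 groups. Most oligosaccharyltransferase subunits lie in the upper part, and MAGT1 and GFPT1 at the bottom.

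Other genes linked to N-glycans were counted from lists that hold no member. Of 11 tested genes linked to sugar nucleotides and mannose, 6 rose and 2 fell (PMM1 and UGP2) at 24 h. Of all tested genes 19.6% rose and 21.1% fell at 24 h. At 12 h 3 of the 11 rose, beside 5.27%. Not all 6 supply sugar, since they include AMDHD2, a deacetylase that removes a hexosamine intermediate. AMDHD2 rose by 1.87 (SE 0.36, adjusted p = 0.00062), and exons of other genes cover 40.3% of its exon bases. The fall of PMM1 by 0.58 (adjusted p = 0.026) ended without vehicle replicate B (-0.38, adjusted p = 0.199), EMD37 replicate A (-0.46, adjusted p = 0.171) or EMD37 replicate B (-0.70, adjusted p = 0.0523) of 24 h. That of UGP2 by 0.28 (adjusted p = 0.0288) was -0.09 without vehicle replicate A of 24 h (adjusted p = 0.541) and -0.43 without vehicle replicate B of 24 h, where it was still called, and its call also ended without EMD37 replicate A (adjusted p = 0.165) or B (adjusted p = 0.0915) of 24 h, vehicle replicate A (adjusted p = 0.0541) or B (adjusted p = 0.0531) of 12 h, or EMD37 replicate B of 12 h (adjusted p = 0.0614). UAP1L1, a close relative of UAP1, had 104 and 93.8 CPM with EMD37 at 24 h, against 16.8 and 24.5 CPM with vehicle, and rose by 2.27 (SE 0.14, adjusted p = 3.5e-09). GMPPA and GMPPB form the enzyme complex for GDP-mannose. GMPPA rose by 0.94 at 24 h (adjusted p = 1.6e-05) and by 0.94 at 12 h (adjusted p = 0.00013). GMPPB rose by 0.64 at 24 h (adjusted p = 0.00027) and by 1.05 at 12 h (adjusted p = 7.4e-06). Reads of GMPPB are uncertain, since 54.1% of its exon bases are also exons of AMIGO3 or RNF123. GFPT2, the relative of GFPT1, had 40.4 and 45.6 CPM with EMD37 at 24 h, against 29.1 and 28.2 CPM with vehicle, and rose by 0.59 (adjusted p = 0.00055). UAP1L1 also rose at 12 h by 0.59 (SE 0.15, adjusted p = 0.020), but not without vehicle replicate A (log2 0.50, adjusted p = 0.172), EMD37 replicate A (0.66, adjusted p = 0.0850) or EMD37 replicate B (0.52, adjusted p = 0.176) of 12 h.

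Of the further N-glycan genes TMEM258, KRTCAP2, MLEC, NGLY1 and ENGASE, TMEM258 rose at 24 h. Exons of other genes cover 20.6% of the exon bases of TMEM258. KRTCAP2, MLEC, NGLY1 and ENGASE were not called, with log2 changes from -0.22 (NGLY1) to 0.40 (KRTCAP2). At 12 h edgeR and DESeq2 each called 0 of the 5, with 1 at an unadjusted p below 0.05 (TMEM258), and the log2 changes ran from 0.09 (MLEC) to 0.35 (TMEM258). TMEM258, a further oligosaccharyltransferase subunit, rose by 0.43 at 24 h (SE 0.15, adjusted p = 0.029), but not without vehicle replicate B (log2 0.29, adjusted p = 0.180), EMD37 replicate A (0.43, adjusted p = 0.103) or EMD37 replicate B (0.44, adjusted p = 0.0997) of 24 h. Of 14 tested Golgi genes that process N-glycans, 4 rose and 4 fell at 24 h, or 28.6% each way, close to the 19.6% and 21.1% of all tested genes, and 2 rose at 12 h, beside 5.27%. Among the 8 calls at 24 h, those of B4GALT1 (0.34, adjusted p = 0.0608) and MAN1A1 (0.32, adjusted p = 0.0807) ended without EMD37 replicate A of 24 h, and that of MAN2A1 without it (-0.20, adjusted p = 0.165) or without vehicle replicate A of 24 h (-0.20, adjusted p = 0.110). MGAT4A rose by 0.91 at 24 h (adjusted p = 0.0004) and MGAT5 fell by 0.70 (adjusted p = 9.2e-06), both of which are branching N-acetylglucosaminyltransferases. FUT8, the core fucosyltransferase, fell by 0.55 (adjusted p = 5.8e-05), and ST3GAL4, a sialyltransferase, by 0.70 (adjusted p = 0.0012). ST3GAL6, a sialyltransferase too, rose by 0.75 (adjusted p = 0.0016). Exons of other genes cover 12.3% of the exon bases of FUT8 and 11.1% of those of ST3GAL6. At 12 h B4GALT1 and MGAT1 rose by 0.40 each (adjusted p = 0.025 and 0.032). Both calls ended without vehicle replicate A (B4GALT1 0.28, adjusted p = 0.273; MGAT1 0.33, adjusted p = 0.239), EMD37 replicate A (0.47, 0.0752; 0.50, 0.0667) or EMD37 replicate B (0.33, 0.251; 0.30, 0.312) of 12 h, and that of MGAT1 also without vehicle replicate B (0.48, adjusted p = 0.0611).

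Promoter windows of 34 members (50 windows; none for ALG10, STT3B, RPN1, TUSC3 and MOGS) were searched on both strands for 4 stress elements: ERSE, ERSE-II (ATTGGNCCACG), UPRE and the C/EBP-ATF response element CARE (TGATGNAA). Only the windows of DHDDS and ALG12 shown above held one, 2 of 50. Over all 35116 RefSeq windows, 0.0769% held ERSE, 0.0541% ERSE-II, 0.729% UPRE and 3.62% CARE, and 4.45% held any of the 4. ERSE, ERSE-II and UPRE share the bases CCACG on one of their strands. Of the 6 ER stress sentinels, 4 had a match, with ERSE in HSPA5 and XBP1, ERSE-II in HERPUD1 and HYOU1, UPRE in HYOU1 and CARE in HERPUD1. The absence of these letters from a window of 300 bases says nothing on the binding of a factor, and a match is no proof of a site in use.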

How the data were processed

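The deposited count table holds whole-number read counts per gene made by the authors, and the deposited normalized table holds counts divided by size factors (a signal unit). FastQC, STAR, DESeq2 and hg38 are named in the submitters' processing notes, without versions. The counting program, its strand setting and its treatment of reads with several matches were not found in any source used here. The count table, as copied for this work, ends inside a line. For 6912 genes found in the normalized table only, reads were recovered from the deposited values (55296 of 55296 values were whole within 0.01). DDOST and ALG11 come from that joined table, which had 17863 tested genes.

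Counts as deposited were tested with edgeR 4.0.16 (R 4.3.3), quasi-likelihood test, TMM scaling, filterByExpr with a minimum count of 10, 1 model with 4 groups and all 8 libraries (4 residual degrees of freedom), Benjamini-Hochberg adjustment over 14850 genes, threshold 0.05. TMM factors were 0.948 to 1.03 and the common biological coefficient of variation was 0.0733. Log2 changes are EMD37 over vehicle, or 24 h over 12 h. Standard errors (SE) were derived from the test, as the absolute log2 change over the square root of its F statistic. Scripts were tested on simulated counts. Exon overlap used GENCODE 29, promoters RefSeq GRCh38.p14. Alternatives were DESeq2 1.42.0, its size factors in edgeR, no low-count filter, the replicate letter as a block, the joined table, each library left out and only the 4 libraries compared. A crossed block at 24 h was added after the data were seen.

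The members and all lists were chosen with earlier results of these data known. A member was given by library where it was called in a treatment comparison or the interaction, and otherwise by its log2 change or range. Up to 4 genes per outside list and treatment comparison were named, those with the smallest p. At 24 h PMM1, UGP2, AMDHD2, B4GALT1, MAN1A1, MAN2A1 and ST3GAL6 were added after their values were seen. So were KRTCAP2, MLEC, NGLY1 and ENGASE where a range is given. A result for 1 listed gene is not reported here. Depth was 8994977 to 11437813 reads per library, and limits for 0 reads cover counting error only.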

Additional observations from a re-analysis of the deposited data

Results flagged for a closer look

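For 7 members the response to EMD37 at 24 h differed from that at 12 h, by the interaction term (24 h effect minus 12 h effect, log2, edgeR adjusted p below 0.05). The interaction was 0.49 for ALG2 (0.86 at 24 h and 0.37 at 12 h), with EMD37 above vehicle in 4 of 4 libraries. It was 0.44 for OSTC (0.74 and 0.30, adjusted p = 0.0322), 0.42 for RPN1 (0.68 and 0.26, adjusted p = 0.0163), 0.35 for NUS1 (0.68 and 0.33, adjusted p = 0.0478) and 0.34 for STT3A (0.55 and 0.21, adjusted p = 0.0393). It was -0.58 for DPM2 (-0.35 at 24 h and 0.23 at 12 h, adjusted p = 0.0316) and -0.49 for MPDU1 (-0.46 and 0.02). Vehicle levels at 24 h against 12 h differed by -0.36 for ALG2, -0.29 for NUS1, 0.47 for DPM2 and 0.20 for MPDU1. They differed less for OSTC (-0.16), RPN1 (0.04) and STT3A (-0.007). The part of the vehicle levels in the interactions was not tested. The interactions of NUS1 and STT3A ended under 9 of 13 alternatives each, those of DPM2 and OSTC under 6, RPN1 under 4, MPDU1 under 2 and ALG2 under 1.

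These calls ended without single libraries as follows. Vehicle and EMD37 name the library left out, and the interaction without it stands in front of its adjusted p. Leaving out a library also weakens the test, and some estimates hardly moved, such as that of RPN1 without EMD37 A of 12 h. A lost call therefore does not show that the library decided it. RPN1 missed the threshold without vehicle B of 12 h (0.38, adjusted p = 0.0829), EMD37 A of 12 h (0.42, adjusted p = 0.0710), EMD37 B of 12 h (0.43, adjusted p = 0.0749) or EMD37 B of 24 h (0.36, adjusted p = 0.0832). OSTC missed it without any 1 library of 12 h (0.43 to 0.48, adjusted p = 0.0765 to 0.122), vehicle B of 24 h (0.30, adjusted p = 0.104) or EMD37 B of 24 h (0.36, adjusted p = 0.1503). DPM2 missed it without vehicle A of 12 h (-0.49, adjusted p = 0.127), EMD37 A (-0.66, adjusted p = 0.0598) or B (-0.49, adjusted p = 0.1498) of 12 h, vehicle B of 24 h (-0.40, adjusted p = 0.0730), or EMD37 A (-0.52, adjusted p = 0.105) or B (-0.63, adjusted p = 0.0729) of 24 h. NUS1 missed it without any 1 library of 12 h (0.32 to 0.40, adjusted p = 0.0865 to 0.188), vehicle A of 24 h (0.35, adjusted p = 0.0512) or EMD37 B of 24 h (0.28, adjusted p = 0.186). STT3A missed it without any 1 library of 12 h (0.28 to 0.42, adjusted p = 0.0757 to 0.194), vehicle B of 24 h (0.28, adjusted p = 0.111), or EMD37 A (0.38, adjusted p = 0.0763) or B (0.32, adjusted p = 0.118) of 24 h.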

How the results depend on the processing

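Of 2008 alternative values of members, 1864 kept their side of the threshold, 106 lost it and 38 gained it. None changed sign where the main or the alternative value was called. Changes of sign between values that were not called were not counted. Of the 16 calls at 24 h, DDOST included, 10 held under every alternative (NUS1, ALG2, STT3A, STT3B, RPN1, OSTC, DDOST, PGM3, ALG10B and MPDU1), and 1 of 7 at 12 h (PGM3). With only the 4 libraries of a comparison, members called at 12 h were 9 higher and 2 lower (all genes 1394 and 1109), and in the vehicle comparison 0 and 0 (all genes 42 and 83). Without the low-count filter 3 members were called higher at 12 h, and 623 genes higher in the vehicle comparison. DESeq2 called 0 members and 336 genes lower at 12 h. At 12 h the calls of NUS1 (adjusted p = 0.0528) and UAP1 (0.0541) ended without the filter and those of ALG10B (0.0707) and MOGS (0.0846) with DESeq2. At 24 h DHDDS ended with DESeq2 (0.0594), without the filter (0.0937) and with 4 libraries (0.0747), DPM2 with DESeq2 (0.0786) and 4 libraries (0.0712), and RPN2 with 4 libraries (0.0782). With recovered reads 2 members were higher in the vehicle comparison, and with DESeq2-type size factors 2 were lower. Correlations of A minus B differences between groups were -0.162 to 0.161. Such values cannot show whether libraries of the same letter shared a culture or a batch. With the replicate block, 3 members had a higher interaction (NUS1, adjusted p = 0.0687, and STT3A, adjusted p = 0.0649, were lost). With crossed letters at 24 h, 10 members were higher and 7 lower, of 3243 and 3463 genes.

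Leaving out 1 library each gave, of members, 1 to 8 higher and 0 to 2 lower at 12 h, 8 to 12 and 3 to 7 at 24 h, 0 to 6 and 0 to 2 in the interaction, and 0 to 2 and 0 to 3 in the vehicle comparison. Of all genes it gave 387 to 1271 higher and 106 to 958 lower at 12 h, 2195 to 3056 and 2113 to 2941 at 24 h, 677 to 1615 and 513 to 1621 in the interaction, and 34 to 1564 and 55 to 929 in the vehicle comparison. A lone library left in a group was assumed to vary like the other groups. The cause of these shifts was not tested. Other scalings moved the median of all genes by at most 0.0244. The 2 libraries a group and the low reads of ALG6, ALG12, DPM3 and MOGS left standard errors of 0.30 or more on their treatment changes.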
